A study of Homo sapiens with 12 samples.

Results

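A list of 48 interferon response genes was measured in H9 cells, an established human embryonic stem cell line, after transfection with oligonucleotides aimed at transcripts of LINE1 (L1), a class of retrotransposons. The 48 genes were taken by symbol from a table of 53712 named genes. All 48 were found there, and 44 of them had 10 or more counts in at least 4 libraries and were tested, among 17484 genes tested in all. The 3 groups were ASO-L1 (antisense oligos against L1), SO-L1 (the L1 oligos in the sense direction) and ASO-Ctr (antisense oligos with no intended target), with 4 libraries each, numbered 1 to 4. Cells of every group were held in RSeT medium, a medium sold for the naive state of pluripotency, and received 25 nM oligo by lipid transfection, then 10 nM DZNep, which lowers histone methylation, and 5 nM TSA, which blocks histone deacetylases. All groups also had 0.7 uM trans-ISRIB, 5 uM emricasan and 10 uM Y-27632 for the first 24 h, and were harvested unsorted at 48 h for sequencing of poly(A)-selected RNA. H9 is 1 line, so no other genetic background was sampled, and the group labelled as control was itself transfected.

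Interferons are secreted proteins by which cells signal infection. Cytosolic sensors of foreign RNA, such as RIG-I (the product of DDX58) and MDA5 (IFIH1), act through the adaptor MAVS to switch on interferon genes. Secreted interferon binds its receptors, the kinases JAK1 and TYK2 pass the signal on, and a complex that includes STAT2 and IRF9 binds the interferon-stimulated response element (ISRE) in front of many genes. The products include antiviral effectors, more sensors, transcription factors that extend the response, and the parts of antigen presentation. Pluripotent stem cells are known to answer interferon weakly and to keep a subset of these effectors, the IFITM genes among them, on without it.

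Total counts lay between 20367989 and 32180891 per library, and mitochondrially encoded RNAs took between 4.739% and 8.807% of them. Levels are given as CPM, which are counts scaled to a common effective library size, and are not divided by gene length, so they are compared across libraries only. The 8 markers of pluripotent cells summed to 8266 to 8828 CPM in ASO-L1, against 9407 to 9857 CPM in SO-L1 and 9480 to 10240 CPM in ASO-Ctr. Libraries numbered 1 and 2 stood apart from those numbered 3 and 4 in every group, so for most of the members called, values within each pair of numbers are given beside the pooled ones. The labels do not say what a number shares. Libraries of the same number deviated together from their group means (r between 0.438 and 0.545), as did 1 with 2 and 3 with 4. A second fit that carries the library number as a block is quoted where it changes a call. The main fit leaves the number out and counts these differences as spread, so members not called there may be called with the block. Pooled fold changes and SEs are those of the main fit unless said otherwise. L1 RNA itself was not analysed here, so the effect of the oligos on their target is not part of these results. In bulk RNA, fewer cells that use a gene and less of its RNA per cell cannot be told apart.

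Stretches of promoter sequence show the ISRE-type letters found in front of some of these genes. Of the 48 genes, 37 were matched by symbol in RefSeq's promoter table (GRCh38.p14, whereas the counts were made on hg19). Each stretch runs 5′ to 3′ on the gene's own strand, and capitals mark an ISRE-type match, defined as GAAA, any 2 bases, GAAA, or the same on the other strand, which reads TTTC, any 2 bases, TTTC. The first 4 belong to the genes with such a match that rose with ASO-L1, and TAP1 and BST2 are the matched genes with the next smallest p. The ISG20 stretch lies at chr15:88638922-88638981 on the plus strand, the IFI27 stretch at chr14:94110603-94110675 (plus), the ISG15 stretch at chr1:1013359-1013424 (plus) and the IFIT1 stretch at chr10:89392482-89392554 (plus). The TAP1 stretch lies at chr6:32853798-32853863 (minus) and the BST2 stretch at chr19:17405720-17405785 (minus), all upstream of the annotated start of transcription.
ISG20: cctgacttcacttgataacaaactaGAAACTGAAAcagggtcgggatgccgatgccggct
IFI27: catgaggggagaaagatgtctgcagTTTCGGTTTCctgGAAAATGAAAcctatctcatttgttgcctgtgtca
ISG15: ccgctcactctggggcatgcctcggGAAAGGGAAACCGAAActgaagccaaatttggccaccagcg
IFIT1: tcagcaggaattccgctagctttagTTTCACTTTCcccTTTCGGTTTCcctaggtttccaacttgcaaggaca
TAP1: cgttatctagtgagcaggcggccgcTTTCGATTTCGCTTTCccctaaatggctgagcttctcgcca
BST2: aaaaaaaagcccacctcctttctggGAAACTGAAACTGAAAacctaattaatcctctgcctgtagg

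ISG20 had 1 match in these letters and the other five had 2 each, which overlap each other in ISG15, TAP1 and BST2. Over the 250 bases before the start, 17 of the 37 matched genes (45.9%) held an ISRE-type match, against 1061 of all 35116 promoters in the table (3.02%). Effectors carried most of them, with 12 of 14 (85.7%), while RNA sensors had 2 of 8, antigen presentation genes 2 of 6, transcription factors 0 of 3 and the nuclear, ISG15-pathway and PARP genes 1 of 6. A further motif was searched on both strands, the gamma-activated site (GAS), TTC, any 3 bases, GAA, an element known from genes that answer interferon gamma. It was found in 8 of 37 members (21.6%) and in 2306 of all 35116 promoters (6.57%), and in IFI27 it overlaps both ISRE-type matches. Members were chosen as known interferon response genes, so these shares describe the choice. A match says that the letters are there and not that a factor binds them.

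**Figure D1:**
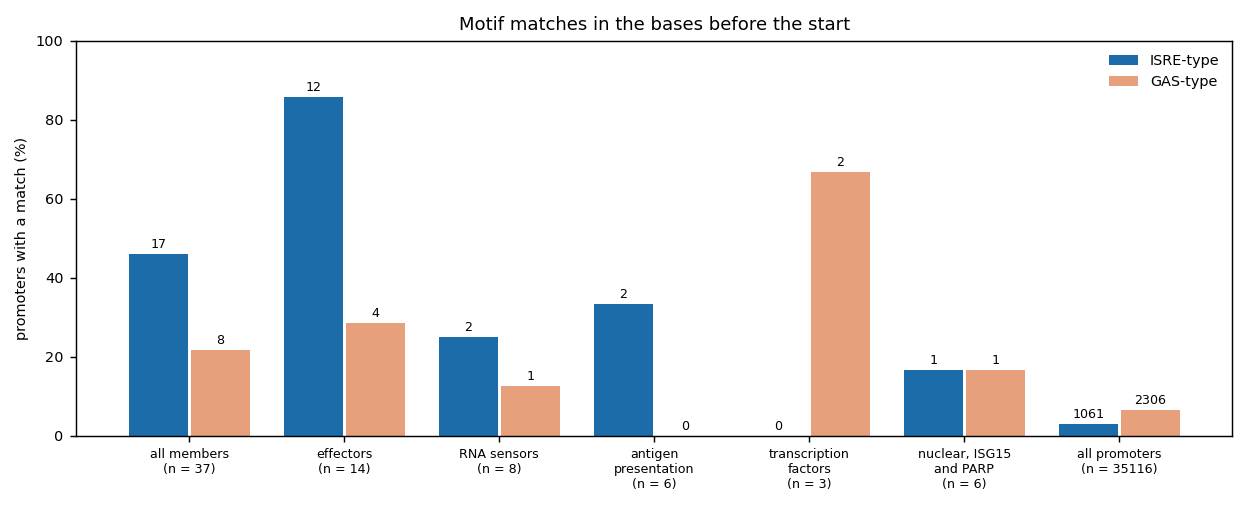
Percentage of promoters with an ISRE-type (dark) or GAS-type (light) match in the 250 bases before the start, for members by role and for all promoters of the RefSeq table; numbers on the bars count promoters with a match, and n is the number of promoters in each set. The ISRE-type bar of the effectors (85.7%) is the tallest, and that of all promoters is 3.02%.

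ASO-L1 against ASO-Ctr asks how these genes differed when the oligos were antisense to L1. A small group of members was higher with ASO-L1, led by ISG20, an exonuclease that degrades single-stranded RNA, and IFI27, a small membrane protein. Without the block, 8 of the 44 tested members rose, 1 fell and 35 did not pass, which is 20.5% called. Over all genes tested 22.0% were called, 11.5% as higher and 10.5% as lower, so the share of members called was near the background. The median log2 fold change was 0.14 over the members and -0.00061 over all genes, with 32 members positive and 12 negative. With the library number as a block, 17 members were higher and 4 lower (47.7%), where 44.4% of all genes were called, 22.1% as higher and 22.3% as lower. Of the 8 that rose, ISG20 and IFI27 did so by at least 2-fold.

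Effectors, also the largest role, had the most calls, with 5 of 15 tested members higher and 0 lower (33.3%, against 22.0% of all genes). The share was 33.3% for transcription factors too, 12.5% for the nuclear, ISG15-pathway and PARP genes, 11.1% for RNA sensors and 0% for antigen presentation genes. With the block 10 effectors were higher and 2 lower (80.0%, against 44.4% of all genes), and 22.2% to 37.5% of the other roles were called. ISG20 had 6.65, 5.96, 8.06 and 6.86 CPM in ASO-L1 libraries 1 to 4, against 1.82, 1.57, 2.11 and 2.07 CPM in ASO-Ctr. Every ASO-L1 library was above every ASO-Ctr library, a log2 fold change of 1.86 ± 0.13 (SE; edgeR quasi-likelihood F test, adjusted p = 9.6e-07), and the change was 1.90 within the pair of numbers 1 and 2 and 1.84 within that of 3 and 4. IFI27 had 4.69, 4.80, 4.14 and 2.83 CPM in ASO-L1, against 0.492, 0.512, 0.676 and 0.868 CPM in ASO-Ctr. Its groups did not overlap either, and its log2 fold change of 2.68 ± 0.22 (edgeR adjusted p = 4.49e-06) was the largest of the 44 members. The ASO-Ctr level of IFI27 rests on only 10 to 21 counts per library, and its SO-L1 level on 13 to 24. Within the number pairs the changes were 3.22 and 2.19, and their difference missed the threshold (interaction adjusted p = 0.347).

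ISG15, a ubiquitin-like protein that is conjugated to other proteins, had 25.0, 24.7, 26.2 and 26.8 CPM in ASO-L1, against 12.5, 13.4, 15.95 and 15.7 CPM in ASO-Ctr. The ASO-L1 libraries lay close together and above all ASO-Ctr libraries (log2 fold change 0.83 ± 0.09, edgeR adjusted p = 2.48e-05; 0.93 and 0.74 within the number pairs). MX1, a GTPase that traps viral nucleocapsids, had 21.5, 21.4, 30.4 and 28.6 CPM in ASO-L1, against 10.8, 11.3, 20.2 and 17.0 CPM in ASO-Ctr. In both groups numbers 3 and 4 were higher than 1 and 2, and the lowest ASO-L1 library was just above the highest ASO-Ctr library. Its log2 fold change was 0.78 ± 0.22 (edgeR adjusted p = 0.0213; 0.95 and 0.67 within the number pairs). This call was lost when any of 4 libraries was left out (ASO-L1 3 or 4, ASO-Ctr 1 or 2), with adjusted p up to 0.0641.

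IFIT1, which binds viral RNA that lacks the methylated cap of host mRNA, had 5.00, 4.46, 6.12 and 5.63 CPM in ASO-L1, against 3.545, 3.005, 4.61 and 4.09 CPM in ASO-Ctr. The groups overlapped, and its log2 fold change of 0.47 ± 0.16 passed narrowly (edgeR adjusted p = 0.0485). It lost the call in 6 of the 8 fits that left out 1 library, all but those without ASO-L1 2 or ASO-Ctr 3, with adjusted p up to 0.139. The relatives IFIT2 (0.49 ± 0.23), IFIT3 (0.30 ± 0.30) and IFIT5 (0.30 ± 0.20) did not pass on their own and were called higher with the block. So were IFI35 (0.53 ± 0.23) and IFITM3 (0.09 ± 0.12, and 0.09 ± 0.03 with the block), a membrane protein that blocks viral fusion.

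The effectors were not all on the same side of zero. BST2 (tetherin), which holds budding virus particles at the cell surface, had 171, 163, 131 and 139 CPM in ASO-L1, against 211, 219.7, 165 and 159 CPM in ASO-Ctr. In each number ASO-L1 was below ASO-Ctr, while the groups overlapped, and the log2 fold change of -0.32 ± 0.13 did not pass (edgeR adjusted p = 0.105; 7.92e-10 with the block). MX2, an inhibitor of HIV nuclear entry, was at -0.41 ± 0.18, which likewise passed only with the block (edgeR adjusted p = 0.135 without it and 3.46e-06 with it). IFI6, IFITM1 and IFITM2 had fold changes between -0.06 and 0.08 on the log2 scale and passed in neither fit. The IFITM genes are near-identical neighbours, and how the authors' counting shared reads between them is not given in the sources used here.

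**Figure D2:**
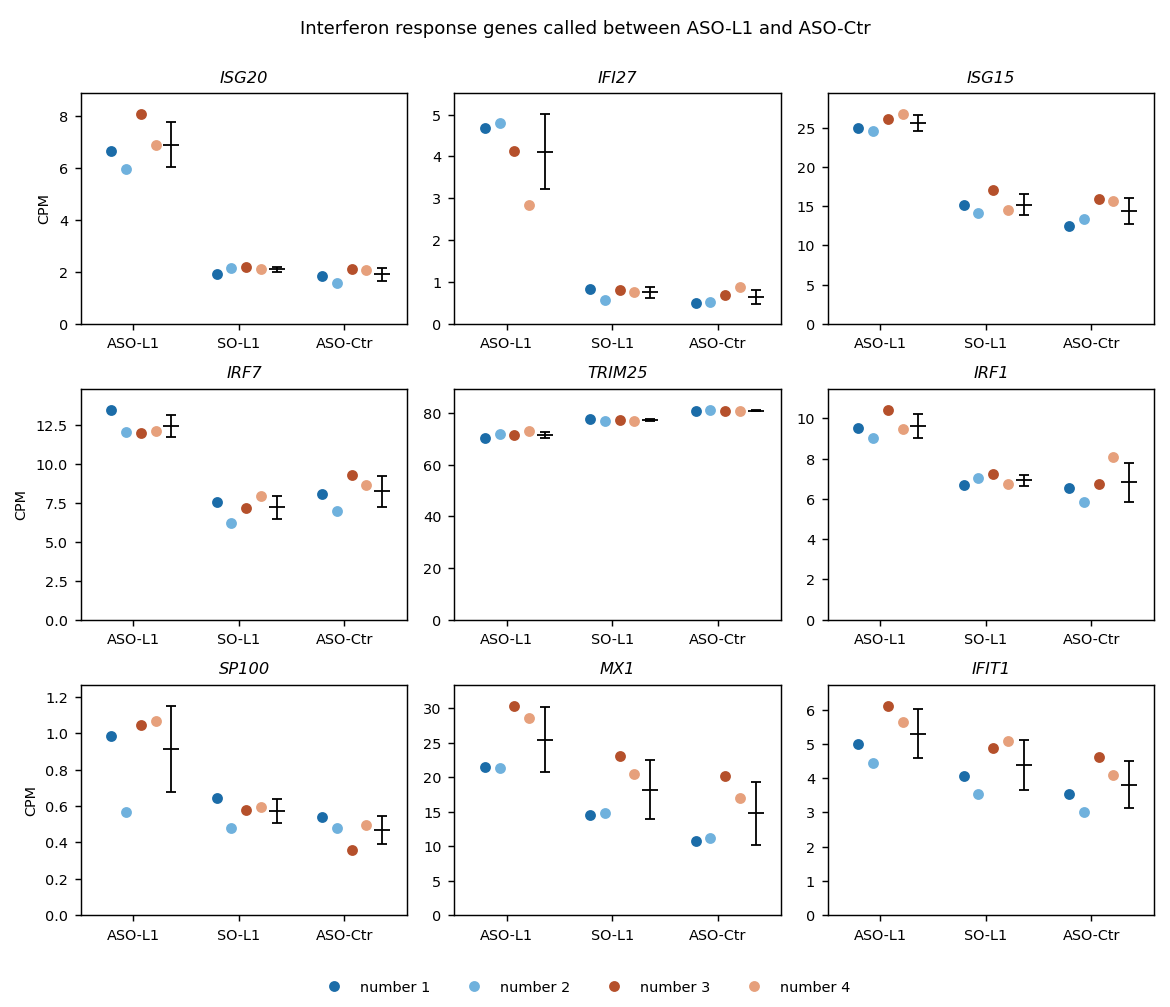
CPM (linear axis from 0) of the 9 members called between ASO-L1 and ASO-Ctr, in each library of ASO-L1, SO-L1 and ASO-Ctr; points are libraries coloured by number, and bars give the mean ± SD of 4 libraries. All ASO-L1 points lie above all ASO-Ctr points in 7 panels and below them for TRIM25, and the groups overlap for IFIT1.

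Among 9 tested RNA sensors and their partners, 0 were higher and 1 was lower (2 lower with the block). TRIM25, a ubiquitin ligase that acts on RIG-I, had 70.3, 72.0, 71.5 and 73.0 CPM in ASO-L1, against 80.9, 81.45, 80.8 and 80.9 CPM in ASO-Ctr. The groups were tight and far apart relative to their spread, and the decrease was small (-0.18 ± 0.03, edgeR adjusted p = 0.00196; -0.19 and -0.16 within the number pairs). EIF2AK2, the kinase PKR, passed only with the block, at -0.09 ± 0.04 (edgeR adjusted p = 0.0458). Without it the value was -0.09 ± 0.07 (edgeR adjusted p = 0.407). The sensors themselves did not pass in either fit: DDX58 was at -0.12 ± 0.18, IFIH1 at 0.36 ± 0.24 and DHX58, which encodes LGP2, at 0.41 ± 0.20. ADAR, the RNA editing enzyme, was at -0.06 ± 0.04 and MAVS at -0.02 ± 0.11. OAS3, a synthetase whose oligoadenylate products activate RNase L, was at 0.21 ± 0.40, and OASL, its relative without that activity, at 0.39 ± 0.26.

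Transcription factors gave 2 higher of 6 tested members, in both fits. IRF7, which drives interferon alpha genes, had 13.5, 12.05, 12.03 and 12.2 CPM in ASO-L1, against 8.075, 6.97, 9.305 and 8.68 CPM in ASO-Ctr. IRF1, an activator shared with the interferon gamma response, had 9.53, 9.01, 10.4 and 9.49 CPM in ASO-L1, against 6.55, 5.84, 6.76 and 8.10 CPM in ASO-Ctr. In both genes all ASO-L1 libraries were above all ASO-Ctr libraries. The log2 fold change was 0.59 ± 0.10 for IRF7 (edgeR adjusted p = 0.00104) and 0.50 ± 0.10 for IRF1 (edgeR adjusted p = 0.00274). Within the number pairs it was 0.77 and 0.43 for IRF7, and 0.59 and 0.43 for IRF1. The parts of the complex that binds the ISRE were not called, with IRF9 at 0.23 ± 0.15 and STAT2 at -0.09 ± 0.09, nor were IRF2 and IRF3.

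None of the 6 antigen presentation genes passed without the block, at log2 fold changes between 0.03 and 0.21, and 2 were higher with it. TAP1, which carries peptides into the endoplasmic reticulum, had 12.7, 14.3, 13.97 and 15.1 CPM in ASO-L1, against 11.6, 10.9, 13.6 and 12.45 CPM in ASO-Ctr. ASO-L1 was the higher of each number, the groups overlapped, and the log2 fold change of 0.21 ± 0.08 passed only with the block (edgeR adjusted p = 0.0944 without it and 0.0118 with it). B2M, the light chain of class I molecules, was at 0.11 ± 0.19 without the block and did not pass. With the block it was at 0.10 ± 0.04 and passed (edgeR adjusted p = 0.0212).

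In the remaining 8 genes, of nuclear bodies, the ISG15 pathway and the PARP family, 1 rose (3 with the block). SP100, a component of PML nuclear bodies, had 0.984, 0.565, 1.04 and 1.07 CPM in ASO-L1, against 0.542, 0.478, 0.358 and 0.496 CPM in ASO-Ctr. The groups did not overlap, although ASO-L1 2 came close to ASO-Ctr 1, and these levels rest on only 9 to 30 counts per library. Its log2 fold change was 0.95 ± 0.24 (edgeR adjusted p = 0.0125; 0.57 and 1.30 within the number pairs). USP18, the protease that removes ISG15, had 3.94, 3.89, 5.94 and 5.46 CPM in ASO-L1, against 2.265, 2.903, 4.06 and 3.51 CPM in ASO-Ctr. Numbers 3 and 4 were higher in both groups, and the log2 fold change of 0.59 ± 0.24 passed only with the block (edgeR adjusted p = 0.108 without it and 7.37e-05 with it). PARP9 (0.19 ± 0.10) did so too, while its partner DTX3L (0.16 ± 0.11), PARP14, PML, IFI16 and UBE2L6 passed in neither fit.

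Some markers of other cells also differed between these groups, and their part in the results was not tested. The counts called stand beside 22.0% of all genes called in ASO-L1 against ASO-Ctr, and 44.4% with the block. Of 10 fibroblast markers 5 were tested and 2 were higher in ASO-L1 (COL1A1 and TWIST2) and 0 lower. With the block THY1 was also higher, and COL1A2 and POSTN were lower (edgeR adjusted p = 0.0103, 5.26e-05 and 0.0325). The 10 together summed to 301.8 to 400.2 CPM in ASO-L1, against 255.3 to 383.2 CPM in ASO-Ctr. FAP was at 0 in all libraries, and DCN and LUM had at most 3 counts in any library. Of 10 immune cell markers 5 were tested and 2 were higher (CD14 and CSF1R, and NKG7 with the block). CD14 had only 3 to 22 counts per library and NKG7 6 to 23. The 10 summed to 24.0 to 36.7 CPM in ASO-L1 and 25.4 to 34.4 CPM in ASO-Ctr. Most of this was CD74, called in neither fit, with 17.5 to 28.3 CPM in ASO-L1 and 20.0 to 29.0 CPM in ASO-Ctr. PTPRC, the common leukocyte antigen, had at most 2 counts in any library. Of 10 trophectoderm and amnion markers 5 were tested and 2 were higher in both fits (GATA2 and KRT7), with sums of 12.3 to 18.6 CPM in ASO-L1 and 11.95 to 14.1 CPM in ASO-Ctr. Of 8 markers of naive pluripotency 4 were higher and 0 lower (6 higher and 1 lower, DPPA5, with the block), summing to 415.8 to 674.1 CPM in ASO-L1, against 295.9 to 408.2 CPM in ASO-Ctr. Of the 8 pluripotent cell markers 0 were higher and 4 lower, and all 8 were lower with the block. Against SO-L1, 2 fibroblast, 2 immune, 1 trophectoderm and amnion and 4 naive markers were higher in ASO-L1, and 3 pluripotent cell markers were lower. With the block these counts were 3, 2, 2 and 5 higher and 6 lower, and 1 fibroblast marker (COL1A2) and 1 naive marker (DPPA5) were also lower. In that comparison 20.0% of all genes were called, and 42.9% with the block.

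**Figure D3:**
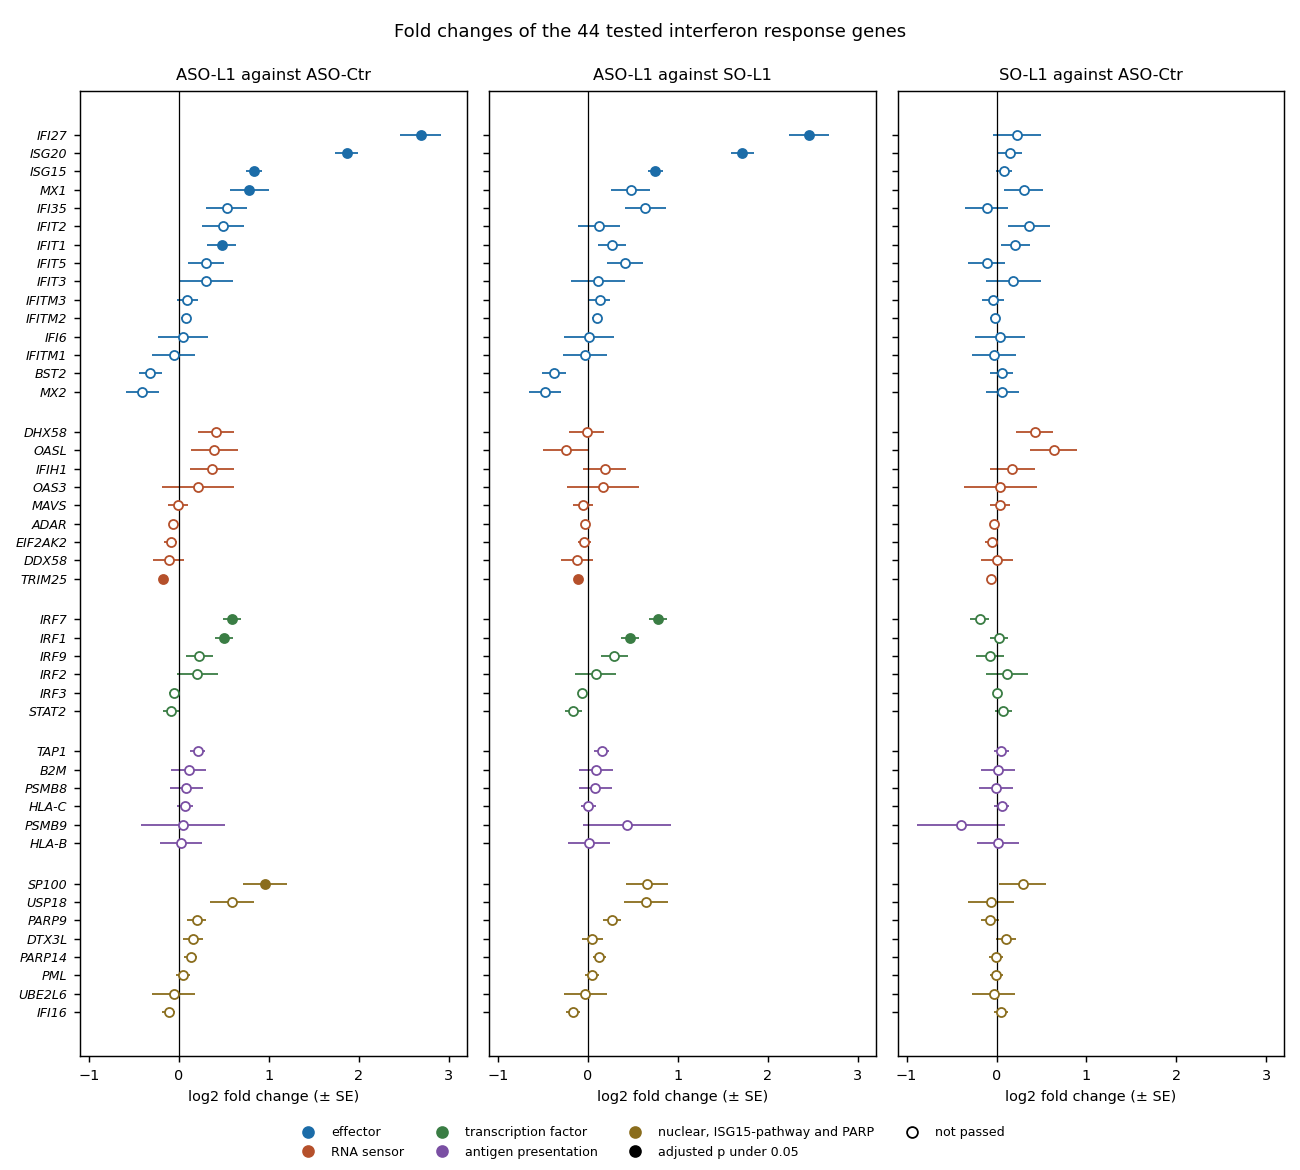
Log2 fold change ± SE of each of the 44 tested members in the 3 comparisons, grouped by role and ordered by the first comparison; filled points passed an edgeR adjusted p of 0.05. ISG20, IFI27, ISG15, IRF7 and IRF1 are filled on the right, and TRIM25 on the left, in both ASO-L1 panels, and no point is filled for SO-L1 against ASO-Ctr.

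ASO-L1 against SO-L1 sets the antisense oligos beside oligos of the opposite direction. ISG20, IFI27, ISG15, IRF7 and IRF1 rose and TRIM25 fell, and these 6 were called against ASO-Ctr too. The other 3 called against ASO-Ctr, SP100, MX1 and IFIT1, did not pass here without the block. Both comparisons use the same ASO-L1 libraries, so they are not independent of each other. In all, 5 of 44 members were higher and 1 lower (13.6%), against 20.0% of all genes tested, 10.5% as higher and 9.52% as lower. The median was 0.10 over members and -0.0028 over all genes. With the block 14 members were higher and 5 lower (43.2%), against 42.9% of all genes, 21.4% as higher and 21.5% as lower.

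ISG20 had 5.96 to 8.06 CPM in ASO-L1, against 1.93, 2.14, 2.17 and 2.12 CPM in SO-L1 (log2 fold change 1.72 ± 0.13, edgeR adjusted p = 2.22e-06). IFI27 had 2.83 to 4.80 CPM in ASO-L1, against 0.840, 0.567, 0.813 and 0.763 CPM in SO-L1 (2.46 ± 0.22, edgeR adjusted p = 1.02e-05). ISG15 had 24.7 to 26.8 CPM in ASO-L1, against 15.1, 14.1, 17.1 and 14.6 CPM in SO-L1 (0.75 ± 0.09, edgeR adjusted p = 7.01e-05). For these 3 effectors the lowest ASO-L1 library was above the highest SO-L1 library. IRF7 had 12.03 to 13.5 CPM in ASO-L1, against 7.56, 6.24, 7.18 and 7.97 CPM in SO-L1 (0.78 ± 0.10, edgeR adjusted p = 0.000162). IRF1 had 9.01 to 10.4 CPM in ASO-L1, against 6.67, 7.02, 7.25 and 6.74 CPM in SO-L1 (0.47 ± 0.10, edgeR adjusted p = 0.00435). TRIM25 had 70.3 to 73.0 CPM in ASO-L1, against 77.8, 77.1, 77.6 and 77.1 CPM in SO-L1 (-0.11 ± 0.03, edgeR adjusted p = 0.0317), so that its SO-L1 level lay between those of the other groups. The TRIM25 call was lost in 6 of the 8 fits that left out 1 library, all but those without ASO-L1 4 or SO-L1 4, with adjusted p up to 0.0717. Within numbers 1 and 2 and numbers 3 and 4 the changes were 1.62 and 1.80 for ISG20, 2.76 and 2.15 for IFI27, and 0.77 and 0.73 for ISG15. They were 0.89 and 0.68 for IRF7, 0.43 and 0.51 for IRF1, and -0.12 and -0.10 for TRIM25.

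A further 13 members passed only with the block in ASO-L1 against SO-L1. IFI35, which had 3.82, 3.45, 2.61 and 2.92 CPM in ASO-L1 and 2.175, 2.05, 2.235 and 1.74 CPM in SO-L1, did not overlap between the groups (0.64 ± 0.23, edgeR adjusted p = 0.0663 without the block and 0.00104 with it). USP18 had 3.89 to 5.94 CPM in ASO-L1, against 2.27, 2.05, 3.69 and 4.15 CPM in SO-L1 (0.65 ± 0.24, edgeR adjusted p = 0.0827 without the block and 1.54e-05 with it). SP100 had 0.565 to 1.07 CPM in ASO-L1, against 0.643, 0.480, 0.576 and 0.593 CPM in SO-L1 (0.66 ± 0.24, edgeR adjusted p = 0.0665 without the block and 0.0293 with it). In each of these genes ASO-L1 was the higher group in 4 of 4 numbers. PARP9 had 10.99, 11.6, 9.56 and 10.15 CPM in ASO-L1 and 8.85, 9.94, 8.095 and 8.26 CPM in SO-L1 (0.27 ± 0.10, edgeR adjusted p = 0.0827 without the block and 0.00609 with it). BST2 had 131 to 171 CPM in ASO-L1, against 217, 225, 167 and 177 CPM in SO-L1, which was the higher group in each number (-0.38 ± 0.13, edgeR adjusted p = 0.0603 without the block and 1.45e-11 with it). MX2 had 9.37, 9.29, 13.5 and 13.3 CPM in ASO-L1 and 14.2, 13.2, 18.1 and 17.4 CPM in SO-L1 (-0.47 ± 0.18, edgeR adjusted p = 0.0866 without the block and 2.52e-07 with it). The other 7 were MX1, IFIT1, IFIT5, IFITM2 and IFITM3, called higher, and STAT2 and IFI16, called lower.

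The authors' deposited table for ASO-L1 against SO-L1 lists 47 of the 48 members. At an adjusted p under 0.05, the authors' deposited table has 9 members higher and 4 lower in ASO-L1 (27.7%), where 25.1% of its 21414 genes pass. ISG20 stands in the authors' deposited table at a log2 fold change of 1.70, IFI27 at 2.41 and ISG15 at 0.75. BST2 (-0.37), MX2 (-0.48) and STAT2 (-0.16) are lower there, along with TRIM25 (-0.11), and all 4 were also lower in the fit with the block. The file name of the deposited normalised values calls them batch corrected, and which values the authors' comparison used is not given in the sources used here.

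SO-L1 against ASO-Ctr compares the sense oligos with the untargeted ones. No member passed without the block: 0 of 44 were higher and 0 lower by edgeR, and 0 by DESeq2. Over all genes 0.0286% were called by edgeR. An unadjusted edgeR p under 0.05 was found for 1 member and for 540 of all 17484 genes. The largest value was that of OASL, with 0.939, 0.8287, 1.32 and 1.44 CPM in SO-L1, against 0.394, 0.683, 0.954 and 0.868 CPM in ASO-Ctr. SO-L1 was higher in each number, the groups overlapped, and the log2 fold change was 0.64 ± 0.26 (edgeR adjusted p = 1). With the block 1 member was called, where 1.40% of all genes were, 0.423% as higher and 0.972% as lower. This was MX1, with 14.5, 14.8, 23.1 and 20.4 CPM in SO-L1, against 10.8, 11.3, 20.2 and 17.0 CPM in ASO-Ctr (0.30 ± 0.22, edgeR adjusted p = 1 without the block and 0.00427 with it). MX1 was thus intermediate in SO-L1 in each number. A p that misses the threshold does not show that these groups were alike: for ISG20 the change was 0.15 ± 0.14, for IFI27 0.23 ± 0.26 and for ISG15 0.08 ± 0.09.

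Ranges over libraries were also compared, without a model. ASO-L1 and ASO-Ctr did not overlap in 8 members (18.2%), which are the 9 called ones without IFIT1, where 25.2% of all genes did not overlap. ASO-L1 and SO-L1 did not overlap in 7 members, the 6 called ones and IFI35 (15.9%, against 23.9% of all genes). SO-L1 and ASO-Ctr were apart in 1 member, TRIM25 (2.27%, against 2.30% of all genes), in which SO-L1 was lower by 0.07 ± 0.03 on the log2 scale (edgeR adjusted p = 1).

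Members of each role differed between library numbers in all groups alike. The 6 libraries numbered 3 and 4 did not overlap with the 6 numbered 1 and 2 in 14 of 44 members (9 above and 5 below, 31.8%), where 18.2% of all genes did not overlap, 9.04% above and 9.17% below. These sets were found in the data, so the values are a description without a test, and the genes named were chosen after their values were seen. By role, the sets did not overlap in 4 of 6 antigen presentation genes (all 4 higher in numbers 3 and 4), 4 of 9 RNA sensors and their partners (2 higher and 2 lower), 4 of 15 effectors (2 and 2), 1 of 6 transcription factors and 1 of 8 of the remaining members. HLA-B, a class I heavy chain, had 47.55 to 51.7 CPM in numbers 3 and 4, against 28.9 to 32.75 CPM in numbers 1 and 2. B2M had 132 to 154 CPM in numbers 3 and 4 and 91.5 to 103 CPM in numbers 1 and 2. PSMB9, a subunit of the immunoproteasome, had 0.982 to 1.61 CPM in numbers 3 and 4, against 0.273 to 0.837 CPM in numbers 1 and 2. HLA-C had 182 to 205 CPM in numbers 3 and 4, against 158 to 174.5 CPM in numbers 1 and 2, so that in each of these 4 genes the sets did not overlap.

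UBE2L6, the conjugating enzyme for ISG15, had 30.8 to 34.75 CPM in numbers 3 and 4 and 18.4 to 24.0 CPM in numbers 1 and 2. IFIT3, DDX58, OAS3 and IFI6 were also higher in numbers 3 and 4. The 5 members that were lower there were IFITM1, IFITM3, MAVS, EIF2AK2 and IRF2. IFITM1, the largest of these, had 139 to 161 CPM in numbers 3 and 4, against 218 to 268 CPM in numbers 1 and 2. None of these 14 was called between groups without the block, where a difference between the sets counts as spread within a group. With the block IFIT3, IFITM3 and B2M were higher and EIF2AK2 was lower in ASO-L1 against ASO-Ctr. Whether the oligo effect itself differed between the sets was tested as an interaction. It passed for 0 of 44 members in ASO-L1 against ASO-Ctr (0.772% of all genes), 1 in ASO-L1 against SO-L1 (1.74% of all genes) and 0 in SO-L1 against ASO-Ctr (0% of all genes). By unadjusted p under 0.05 the counts were 6, 6 and 3 of 44. No share of all genes at that threshold is given here, so nothing is drawn from these counts. The 1 member was MAVS, at 0.08 in the first pair of numbers and -0.23 in the second (interaction adjusted p = 0.0465).

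**Figure D4:**
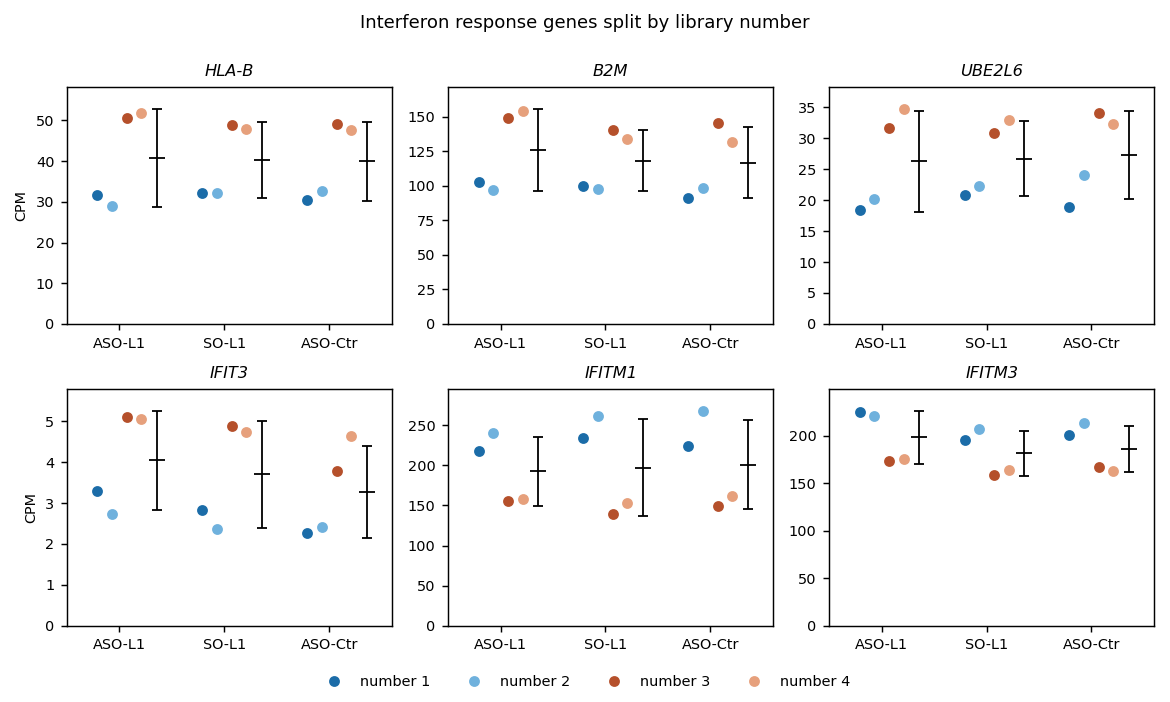
CPM (linear axis from 0) of 6 members in each library of ASO-L1, SO-L1 and ASO-Ctr; points are coloured by library number, and bars give the mean ± SD of 4 libraries. In every group numbers 3 and 4 lie above 1 and 2 for HLA-B, B2M, UBE2L6 and IFIT3 and below them for IFITM1 and IFITM3.

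The 4 untested members had few reads. IFI44 had 21 counts in all of ASO-L1, 19 in SO-L1 and 23 in ASO-Ctr, and IFI44L had 1 in ASO-L1, 2 in SO-L1 and 1 in ASO-Ctr. OAS1 had 34 counts in ASO-L1, 28 in SO-L1 and 21 in ASO-Ctr, and OAS2 had 31 in ASO-L1, 24 in SO-L1 and 30 in ASO-Ctr. IFI44L was thus under 3 counts in each group, a floor that corresponds to 0.0272 CPM in ASO-L1, 0.0312 CPM in SO-L1 and 0.0303 CPM in ASO-Ctr and that covers counting error only. At the threshold, OAS1 reached 10 counts in 2 libraries and stayed outside, while PSMB9 reached it in 10 libraries and was tested.

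Interferons themselves were hardly detected. Of 21 interferon genes 0 reached the level for testing and 15 had no count in any library, IFNB1 among them. The 21 together had 16 counts in ASO-L1, 12 in SO-L1 and 10 in ASO-Ctr. Their receptors were present: IFNAR1 averaged 25.4 ± 0.541 CPM in ASO-L1, 27.4 ± 2.87 CPM in SO-L1 and 27.4 ± 1.15 CPM in ASO-Ctr (SD, n = 4 each), and neither it (-0.11 ± 0.07) nor IFNAR2 (-0.02 ± 0.12) passed the test between ASO-L1 and ASO-Ctr. Of the 6 receptor genes 1 was lower (16.7%, against 22.0% of all genes), IFNLR1 of the lambda receptor (-0.30 ± 0.08, edgeR adjusted p = 0.0222).

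Of 5 JAK-STAT transducers 1 rose with ASO-L1 against ASO-Ctr (20.0%, against 22.0% of all genes). With the block 2 were higher and 2 lower (80.0%, against 44.4% of all genes). JAK1, a kinase shared by the receptors, had 34.9, 32.4, 27.8 and 27.9 CPM in ASO-L1, 19.3, 20.5, 19.1 and 19.4 CPM in SO-L1 and 19.4, 19.5, 20.04 and 17.8 CPM in ASO-Ctr. All ASO-L1 libraries were above all others (0.68 ± 0.08, edgeR adjusted p = 4.94e-05). TYK2, a related kinase, was at 0.14 ± 0.06 and passed only with the block (edgeR adjusted p = 0.097 without it and 0.00639 with it). Among 8 negative regulators 37.5% were called, against 22.0% of all genes (75.0% with the block, against 44.4%). Without the block SOCS1 (0.31 ± 0.09) and SOCS3 (0.51 ± 0.16) rose and PIAS1 (-0.25 ± 0.07) fell. Against SO-L1 these 3 passed only with the block, with SOCS1 at 0.15 (edgeR adjusted p = 0.264 without the block), SOCS3 at 0.44 (0.0684) and PIAS1 at -0.19 (0.0913).

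Further genes of the pathway moved in both directions, at a share near that of all genes without the block. In all, 8 of the 76 tested outside the 48 were higher and 8 lower (21.1%, against 22.0% of all genes), with a median of -0.0019. The block gave 20 higher and 21 lower (53.9%, against 44.4% of all genes). Of 27 tested further interferon-stimulated genes 1 rose and 6 fell (25.9%, against 22.0% of all genes), with a median of -0.14. With the block 6 were higher and 12 lower (66.7%, against 44.4% of all genes). Against SO-L1 1 was higher and 7 lower (29.6%, against 20.0% of all genes), or 3 and 11 with the block (51.9%, against 42.9%). ZNFX1, a helicase that senses RNA at mitochondria, rose (0.57 ± 0.06, edgeR adjusted p = 3.72e-05), while TRIM5, a restriction factor of retroviral capsids (-0.72 ± 0.09, edgeR adjusted p = 9.95e-05), and IDO1, a tryptophan-degrading enzyme (-0.72 ± 0.13, edgeR adjusted p = 0.00153), fell. Of 16 tested further sensors, adaptors and kinases 3 rose and 0 fell (18.8%, against 22.0% of all genes). They were TRAF6 (0.35 ± 0.06), RELA (0.19 ± 0.05) and IRF8 (1.08 ± 0.31). IRF8 rests on only 8 to 33 counts per library, and in number 1 it had 0.591 CPM in ASO-L1 and 0.542 CPM in ASO-Ctr. Of 14 tested further antigen presentation genes HLA-E rose (0.27 ± 0.09, edgeR adjusted p = 0.0455) and 0 fell, which is 7.14% called, against 22.0% of all genes. HLA-E was at 0.09 within numbers 1 and 2 and at 0.47 within numbers 3 and 4, a difference that passed (interaction adjusted p = 0.00265), and it was not called against SO-L1 (0.16, edgeR adjusted p = 0.253). Against SO-L1 the counts over the 76 were 5 higher and 11 lower (21.1%, against 20.0% of all genes), or 14 and 21 with the block (46.1%, against 42.9%), and for SO-L1 against ASO-Ctr 0 and 0 (1 and 0 with the block).

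Whether the promoter letters go with a rise was not tested. An ISRE-type match was present in 4 of 7 matched members that rose with ASO-L1 against ASO-Ctr (57.1%) and in 11 of 26 that were tested and not called (42.3%). ISG20, IFI27, ISG15 and IFIT1 had one, MX1, SP100 and IRF1 had none in this window, and IRF7 had no entry in the table. BST2, which carries 2 overlapping matches in its printed stretch, was at -0.32, and B2M and OAS3, with 2 matches each, were at 0.11 and 0.21. IRF1 and IRF9 held a GAS-type match.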

How the data were processed

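RNA sequencing was made from 12 H9 libraries, 4 each of ASO-L1, SO-L1 and ASO-Ctr, grouped by title. The authors deposited raw counts for each gene symbol; per the submitters' processing notes, Trim Galore 0.4.0, TopHat2 2.0.13 and featureCounts of Subread 1.5.0 were used with hg19, and the counting options (strand, shared reads) are not given in the sources used here. Reads from overlapping neighbours such as PSMB8, PSMB9 and TAP1, or PARP9 and DTX3L, may therefore not be fully separated. A deposited log2 table of normalised values was used only to check columns: the count table's header names begin one place left of the values, and each count column correlated best with its own log2 column (r between 0.643 and 0.858). The authors' deposited comparison gives a log2 fold change and an adjusted p-value per gene. A row with no gene name (10 counts) was left out.

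From the counts, edgeR 4.0.16 in R 4.3.3 fitted a robust quasi-likelihood model with TMM factors and group means to all 12 libraries, for genes with 10 or more counts in at least 4 libraries. Calls needed a Benjamini-Hochberg adjusted p under 0.05 over all 17484 genes, two-sided. Nothing says that the libraries came from separate cultures, so p-values measure only the spread between these libraries, which may be technical. The scripts were tested on simulated data. Libraries of the same number deviated together from their group means (r between 0.438 and 0.545 over 12 pairs), which by the criterion used (all above 0.1) counts as pairing, and so did 1 with 2 and 3 with 4 (0.442 to 0.528); across these sets r lay between -0.516 and -0.414. The ranges for the same number and for the same set nearly coincide, so pairing by number cannot be told apart from sharing a set. Alternatives were DESeq2 1.42.0, limma-voom 3.58.1, other size factors and filters, the block, 2 groups or 1 set alone, and leaving out each library.

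The members and all lists were chosen with earlier results of these data known. Full values were given for members called in either fit, at most 12 per comparison by smallest p, and of each further pathway list for up to 3 called genes, besides IFNAR1, IFNAR2, JAK1, TYK2 and IFNB1; 1 further gene that the rule names is not reported here. OASL, the members set apart by library number and the marker genes were named after their values were seen. Promoters came from RefSeq by symbol (DDX58 as RIGI).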

Additional observations from a re-analysis of the deposited data

Results flagged for a closer look

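Within a group of 4 libraries, 1 library lay far from the other 3, relative to the group's range, in 4 of the 132 member and group combinations examined; chance gives about 1 in 20. IRF7 was at 13.51 CPM in ASO-L1 1, with the nearest other ASO-L1 library at 12.16 CPM. SP100 was at 0.5649 CPM in ASO-L1 2, below the next ASO-L1 library at 0.9843 CPM. IFITM2 was at 69.64 CPM in ASO-Ctr 2, above the next ASO-Ctr library at 61.04 CPM. TRIM25 was at 81.45 CPM in ASO-Ctr 2 and at 80.94 CPM in the next ASO-Ctr library, in a group whose whole range was under 1 CPM. The calls of IRF7, SP100 and TRIM25 between ASO-L1 and ASO-Ctr held in each fit that left out 1 library.

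The change of MAVS between ASO-L1 and SO-L1 differed between the library numbers: the log2 change in numbers 3 and 4 minus that in numbers 1 and 2 was -0.3078 (edgeR interaction adjusted p = 0.0465). HLA-E, a further antigen presentation gene outside the 48, also differed between the numbers in ASO-L1 against ASO-Ctr: the change in numbers 3 and 4 minus that in numbers 1 and 2 was 0.3784 (edgeR interaction adjusted p = 0.00265).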

How the results depend on the processing

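Counts of calls depended most on how the library number was treated. With the replicate block, members higher numbered 17 (8 without it) and lower 4 (1) in ASO-L1 against ASO-Ctr, 14 (5) and 5 (1) in ASO-L1 against SO-L1, and 1 higher (0) in SO-L1 against ASO-Ctr. Calls over all genes with it were 7764 (3852 without it), 7501 (3498) and 244 (5). Within numbers 1 and 2 alone, 10 members were higher and 3 lower in ASO-L1 against ASO-Ctr, 11 higher and 3 lower in ASO-L1 against SO-L1, and 1 higher in SO-L1 against ASO-Ctr, with 6095, 5899 and 144 genes called. Within numbers 3 and 4 alone, 14 were higher and 4 lower against ASO-Ctr, 13 higher and 3 lower against SO-L1, with 6074, 5877 and 203 genes called. The median of members in ASO-L1 against SO-L1 was 0.01251 with numbers 1 and 2 alone and 0.1671 with 3 and 4 alone (0.10 pooled). The cause was not tested. In ASO-L1 against SO-L1 2 members were lower by DESeq2 and 0 with no filter, and in SO-L1 against ASO-Ctr DESeq2 called 52 genes and no filter 8. Leaving out 1 library gave 0 to 1 members lower in ASO-L1 against SO-L1, and medians of 0.1215 to 0.217 in ASO-L1 against ASO-Ctr and 0.004278 to 0.08193 in SO-L1 against ASO-Ctr. No call changed direction in these settings; 186 values of uncalled members changed sign with neither value passing. DESeq2 gave no adjusted p for 4 members in SO-L1 against ASO-Ctr. In ASO-L1 against ASO-Ctr, the calls lost outside the fits without 1 library were MX1 with no filter (edgeR adjusted p = 0.0892), IFIT1 with only these groups in the fit (0.0587) and SP100 within numbers 1 and 2 (0.265). In ASO-L1 against SO-L1, TRIM25 was lost with no filter (0.253), with only these groups (0.0783) and within either pair of numbers (0.0549 and 0.0897). The share of member promoters with an ISRE-type match was 54.1% over the 300 bases of the table. Depth limits the members with few counts, SP100, OASL, PSMB9 and the 4 untested ones, and IFI27 in SO-L1 and ASO-Ctr.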
